A study of Rattus norvegicus with 6 samples.

Results

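The precursors of opioid and other neuropeptides were followed in whole adrenal gland of 2 rat strains, on 3 arrays of the spontaneously hypertensive rat (SHR) and 3 of the Wistar-Kyoto rat (WKY), its usual normotensive comparison strain. Their 8 genes were Pdyn, Penk, Npy, Gal, Vip, Tac1, Sst and Adm, chosen by name among the 4736 that the annotation gives the array. Every probe set annotated to 1 of them was used, bright or dim, which gave 11 of the 8740 probe sets other than controls on the Affymetrix rat array used. Pdyn, Tac1 and Sst had 2 probe sets each, and 0 of the 11 were shared with another gene symbol. Both groups carry the strain name alone in the labels, which give no age, sex, treatment or pooling of animals. Whether each array stands for another animal is not said either, and the p-values then measure a spread between arrays that may be technical.

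A neuropeptide precursor is a secreted protein that carries 1 or more short peptides between pairs of basic residues. In the secretory granule, convertases cut at these residues, carboxypeptidases trim the basic ends, and several peptides are amidated before release. The adrenal medulla stores such peptides in chromaffin granules together with catecholamines, nerve fibres bring others into the gland, and in the rat, prodynorphin transcripts have also been described in the cortex. The peptides act on G protein-coupled receptors on chromaffin cells, cortical cells and blood vessels.

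The arrays carried cortex and medulla transcripts in both strains. Cyp11a1, the side-chain cleavage enzyme of the cortex, had a mean intensity of 84806 ± 11467 (SD, n = 3) in SHR and 89229 ± 11858 (SD, n = 3) in WKY, and Th, the first enzyme of catecholamine synthesis, was at 12189 ± 2532 and 12284 ± 1604. The deposited arrays shared 1 overall level, and their medians ran from 798.3 to 899.5. SHR replicate 2 had a hexokinase 3' to 5' signal ratio of 4.21, against 1.96 to 2.54 on the other arrays. Its ratios for GAPDH (0.947) and beta-actin (1.35) lay within the range of the other arrays. By the recorded hybridization times alone, SHR replicate 1 and the 3 WKY arrays formed a first run, and SHR replicates 2 and 3 a second. No label names a run, so the runs are an inference from these times. The record of SHR replicate 2 is inconsistent, since its scan time lies a few minutes before its hybridization time. Every fit by run below rests on this inference.

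Upstream sequence shows which common control elements the members carry, and it is printed for the genes with a tested probe set that the RefSeq promoter table held. That table (GRCr8 assembly, a Brown Norway genome and not that of either strain) matched 7 of the 8 members, all but Penk. The 250 bases before the annotated start of Pdyn (chr3:137366504-137366753, minus strand), Npy (chr4:80211861-80212110, plus strand) and Tac1 (chr4:36645333-36645582, plus strand) follow 5′ to 3′, with matches to the motifs searched in capitals.
Pdyn: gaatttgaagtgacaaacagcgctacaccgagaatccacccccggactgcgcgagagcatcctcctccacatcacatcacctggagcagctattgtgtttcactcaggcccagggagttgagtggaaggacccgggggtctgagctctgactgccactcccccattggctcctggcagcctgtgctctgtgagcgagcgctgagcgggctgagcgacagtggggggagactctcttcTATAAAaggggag
Npy: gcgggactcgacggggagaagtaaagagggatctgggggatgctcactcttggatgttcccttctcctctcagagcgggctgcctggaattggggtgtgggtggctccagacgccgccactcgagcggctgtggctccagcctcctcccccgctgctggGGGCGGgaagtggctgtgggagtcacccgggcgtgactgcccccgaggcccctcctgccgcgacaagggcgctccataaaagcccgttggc
Tac1: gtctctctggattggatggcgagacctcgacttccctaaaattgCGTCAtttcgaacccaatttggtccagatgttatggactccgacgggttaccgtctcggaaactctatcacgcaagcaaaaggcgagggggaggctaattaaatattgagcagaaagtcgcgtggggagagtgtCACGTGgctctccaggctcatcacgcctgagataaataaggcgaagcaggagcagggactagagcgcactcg
The capitals mark a TATA box in Pdyn, a GC box in Npy, and a CRE core and an E-box in Tac1. Motifs were searched on both strands of the table's whole window of 300 bases, which also holds 50 bases after the start. They were the cyclic AMP response element (CRE, TGACGTCA), its core (TGACG, which overlaps the full element), the AP-1 site (TGANTCA), the TATA box (TATAAA), the E-box (CACGTG) and the GC box (GGGCGG). The full CRE matched in Sst, where it began at base 3 after the annotated start, and in 1.83% of all 33469 windows. The CRE core matched in 4 of the 7 members, Gal, Vip, Tac1 and Sst, against 21.2% of all windows. The TATA box matched in Pdyn, Gal and Vip (14.2% of all windows), the E-box in Tac1 (6.42%) and the GC box in Npy and Adm (33.1%). The AP-1 letters matched in 0 of the 7 and in 7.33% of all windows. A match is a description of the letters in this window and not of binding.

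The question was which precursor transcripts differ between the strains. Pdyn was higher in SHR, by 3.45-fold in 1 probe set, which passed the test, and by 1.62-fold in the other, which did not. Penk and Npy had lower means in SHR, and 1 Tac1 probe set had a higher mean, but none of these 3 passed. Gal, Vip, Sst and Adm had only probe sets too dim for the test. The test was limma on log2(intensity + 181.5), SHR minus WKY, with Benjamini-Hochberg adjustment over 5244 probe sets, those brighter on average (in log2) than the 40th percentile, and a call meant an adjusted p under 0.05. Of the 11 member probe sets 5 were above that limit, those of Pdyn, Penk and Npy and 1 of Tac1, and 6 lay below it. Among the 5 tested, 1 was called, where limma called 1.95% of all tested probe sets, 1.07% as higher in SHR and 0.877% as lower. The strains did not overlap in 4 of the 5, against 20.7% of all tested probe sets (10.2% with SHR higher and 10.5% with SHR lower), and in 0 of the 6 dim ones. Over all 8740 probe sets, bright and dim, that share was 17.1%. Of the 4, 2 belong to the same gene, Pdyn, and that of Tac1 passed the filter through SHR, where it was higher. The count was therefore not read as an excess among the members. In whole gland, fewer cells of a type and less RNA per cell cannot be told apart.

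**Figure D1:**
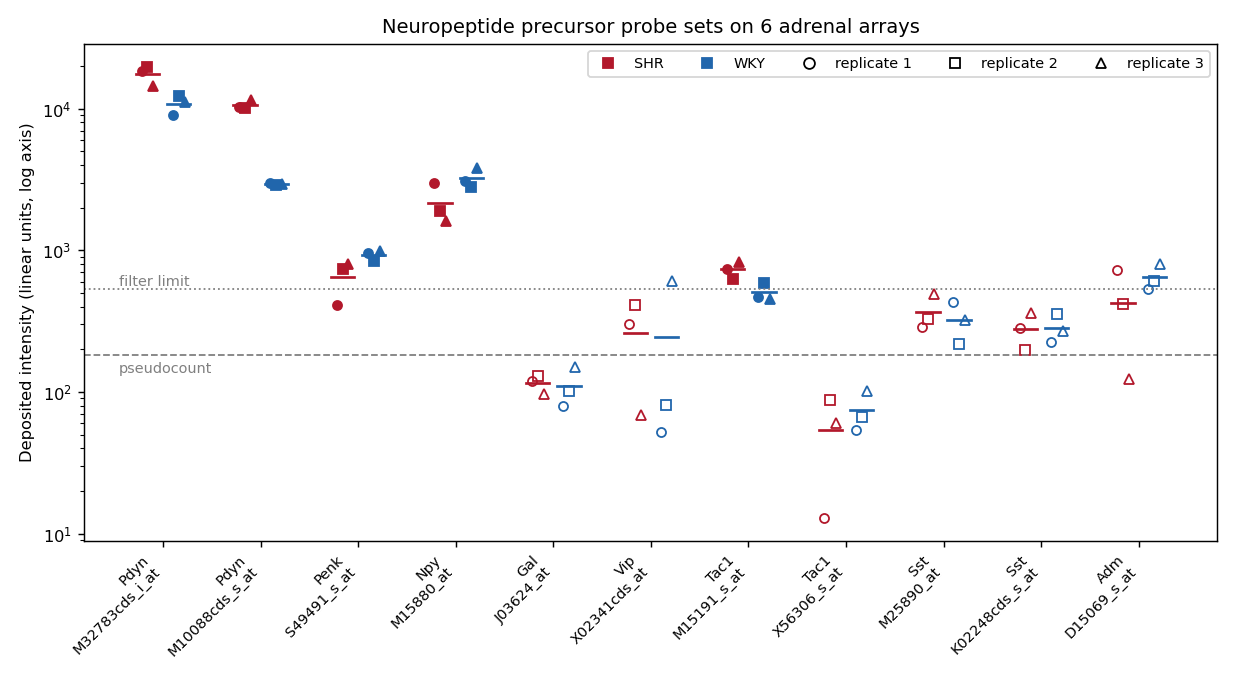
Deposited intensity (linear units on a log axis) of the 11 precursor probe sets on each of the 6 arrays, SHR in red and WKY in blue, with a bar at each strain's mean (n = 3). Filled symbols are tested probe sets and open symbols lie below the filter, whose limit and the pseudocount are drawn as lines. In Pdyn probe set M10088cds_s_at the SHR arrays lie at 10071.1 to 11522.8 and the WKY arrays at 2880.8 to 3001.4, while the strains overlap in every open probe set.

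Prodynorphin (Pdyn) is the precursor of the dynorphins and neo-endorphins, the peptides that prefer the kappa opioid receptor. Its probe set M10088cds_s_at read 10204.6, 10071.1 and 11522.8 on SHR replicates 1 to 3, and 3001.4, 2880.8 and 2923.0 on WKY replicates 1 to 3. All SHR arrays lay far above all WKY arrays, and the lowest SHR array was 3.36 times the highest WKY array. Within a strain the arrays differed little, with a coefficient of variation of 7.57% in SHR and 2.09% in WKY. The means were 10600 ± 802 and 2935 ± 61.2 (± SD, n = 3 each), and the log2 difference was 1.79 ± 0.13 (SE), with a 95% interval from 1.49 to 2.09 and a limma adjusted p of 0.000651. That is a 3.45-fold difference, with an interval from 2.81-fold to 4.25-fold. By unadjusted p it ranked sixth of the 5244 tested probe sets.

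The other Pdyn probe set, M32783cds_i_at, read 18495.4, 19789.0 and 14426.4 on SHR replicates 1 to 3, and 8949.9, 12228.1 and 11170.1 on WKY replicates 1 to 3. Here too the strains did not overlap, but the lowest SHR array, replicate 3, was only 1.18 times the highest WKY array, replicate 2. The means were 17570 ± 2798 in SHR and 10783 ± 1673 in WKY (± SD, n = 3 each). The log2 difference was 0.69 ± 0.17 (SE, 95% interval 0.30 to 1.09), or 1.62-fold, with an unadjusted p of 0.00355 and a limma adjusted p of 0.102. It did not pass the test. Within a strain its arrays spread more widely, with coefficients of variation of 15.9% in SHR and 15.5% in WKY.

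A call in one probe set of a gene and not in the other does not show that their strain differences differ, so the difference was tested directly. For each array the log2 value of one probe set was subtracted from that of the other, and limma compared the strains over all 1521 pairs of tested probe sets that share a gene symbol. The 1521 pairs came from 881 genes, and pairs of 1 gene share probe sets. In Pdyn, M10088cds_s_at minus M32783cds_i_at was -0.85, -0.96 and -0.32 on SHR replicates 1 to 3, and -1.52, -2.02 and -1.87 on WKY replicates 1 to 3. The 3 SHR values all lay above the 3 WKY values. The strain difference of M10088cds_s_at exceeded that of M32783cds_i_at by 1.09 ± 0.25 (SE, log2, 95% interval 0.51 to 1.68). The unadjusted p was 0.00290 and the limma adjusted p over all pairs was 0.232, so the pair was not called, and it ranked 19th of 1521. Of all pairs 0.263% were called, and 8.94% had an unadjusted p under 0.05. In the Affymetrix naming, the suffix s marks probes shared by more than 1 transcript and the suffix i a set with fewer unique probes than the design asked for, and cds marks a target within the coding part of a sequence record.

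**Figure D2:**
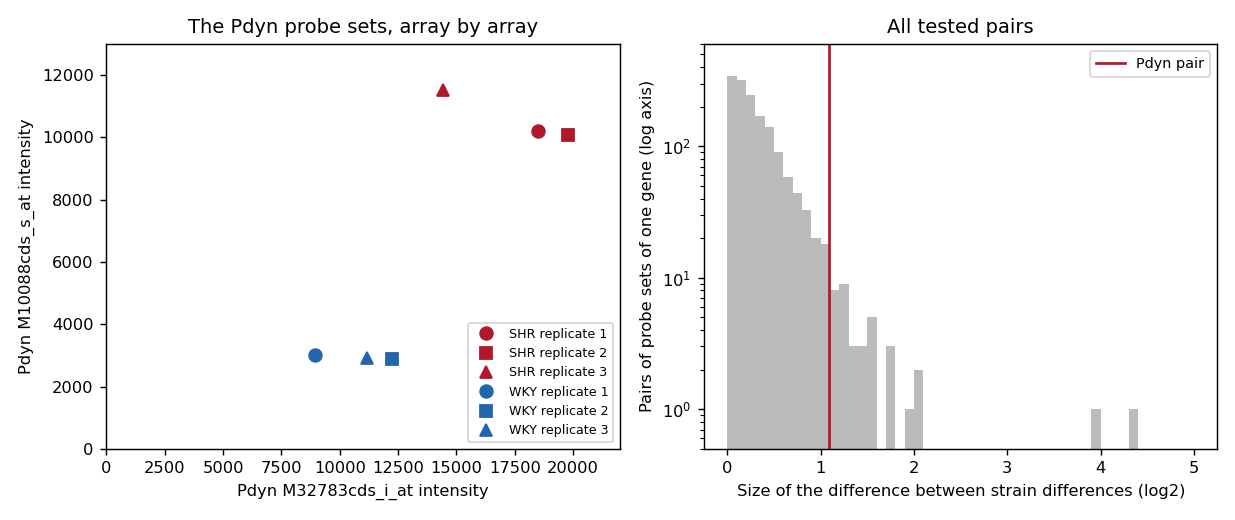
Left, intensity of the 2 Pdyn probe sets against each other on the 6 arrays (linear axes), SHR in red and WKY in blue. Right, the size of the difference between the strain differences of 2 probe sets of one gene (log2) over 1521 tested pairs, counted on a log axis, with the Pdyn pair at 1.09 drawn as a line. On the vertical axis of the left panel the strains are far apart with little spread within each, and on its horizontal axis the gap is narrower than the spread within a strain.

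The Pdyn results were also followed through the hybridization runs and the single arrays. With the run as a block, which sets SHR replicate 1 against the WKY arrays, M10088cds_s_at stood at 1.74 ± 0.20 (SE) and stayed called (limma adjusted p = 0.0294), where 0.381% of all tested probe sets were called. Within the first run alone it stood at 1.74 and was not called (adjusted p = 0.123), where 0.0191% of all tested probe sets were. With the replicate number as a block it was also called (adjusted p = 0.00643), as were 1.01% of all tested probe sets. No value came from the second run, where WKY is missing. M32783cds_i_at stood at 0.78 in both fits by run and at 0.69 in the fit with replicate numbers. Without any 1 array M10088cds_s_at stayed called in each of the 6 fits, at 1.73 to 1.82, while M32783cds_i_at was at 0.57 to 0.83 and was called in none.

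**Figure D3:**
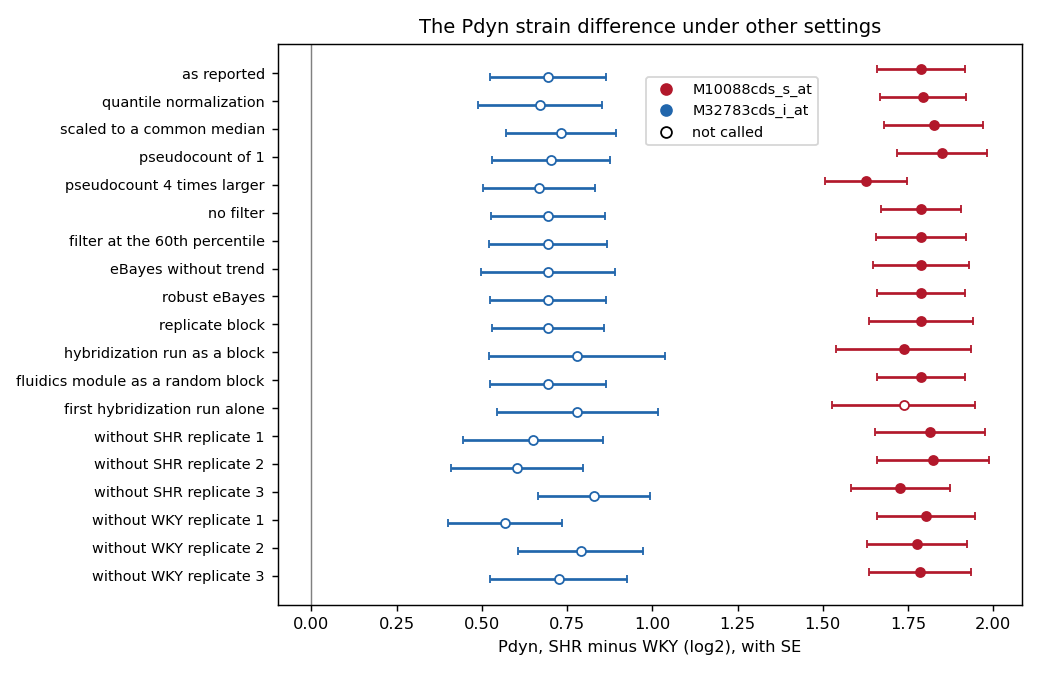
Log2 difference SHR minus WKY of the 2 Pdyn probe sets, with its SE, as reported and under 18 other settings. Filled points passed an adjusted p of 0.05 and open points did not. M10088cds_s_at (red) lies between 1.63 and 1.85 and is open only in the first hybridization run alone, and M32783cds_i_at (blue) lies between 0.57 and 0.83 and is open throughout.

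Proenkephalin (Penk) is the precursor of Met- and Leu-enkephalin, opioid peptides that chromaffin granules hold. Its probe set S49491_s_at read 413.0, 733.0 and 794.1 on SHR replicates 1 to 3 and 956.1, 833.0 and 980.8 on WKY replicates 1 to 3. The SHR arrays were all below the WKY arrays, narrowly so for replicate 3, and SHR replicate 1 was far below the rest. The means were 647 ± 205 in SHR and 923 ± 79.2 in WKY (± SD, n = 3 each). The log2 difference was -0.45 ± 0.26 (SE, 95% interval -1.05 to 0.16), with a limma adjusted p of 0.492. It moved from -0.22 without SHR replicate 1 to -0.89 in the first run, where SHR replicate 1 is the 1 SHR array, so this array decides its size.

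Neuropeptide Y (Npy) is stored with noradrenaline in chromaffin cells and sympathetic nerve endings. Its probe set M15880_at read 2966.4, 1902.4 and 1602.2 on SHR replicates 1 to 3 and 3100.7, 2797.9 and 3824.3 on WKY replicates 1 to 3. SHR replicates 2 and 3 were below all WKY arrays, while SHR replicate 1 lay among them, so the strains overlapped. The means were 2157 ± 717 and 3241 ± 527 (± SD, n = 3 each), and the log2 difference was -0.58 ± 0.24 (SE, 95% interval -1.13 to -0.03). Its unadjusted p was 0.0416 and its limma adjusted p 0.329, against 13.9% of all tested probe sets with an unadjusted p under 0.05. The 2 low SHR arrays were those of the second run, and with the run as a block the difference was -0.11 (adjusted p = 0.937). The part of the run in the Npy values was not tested further.

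Tac1 encodes the precursor of the tachykinins substance P and neurokinin A, which sensory and other nerve fibres carry. Probe set M15191_s_at read 738.3, 631.0 and 829.5 on SHR replicates 1 to 3 and 469.2, 589.7 and 453.4 on WKY replicates 1 to 3. The strains did not overlap, but the lowest SHR array was only 1.07 times the highest WKY array. The log2 difference was 0.42 ± 0.24 (SE, 95% interval -0.14 to 0.97; limma adjusted p = 0.483). This probe set passed the filter through SHR, since its mean log2 value was 9.83 there and 9.42 in WKY, on the far side of the limit of 9.47. The other Tac1 probe set, X56306_s_at, read 12.9 to 88.4 in SHR and 53.7 to 101.9 in WKY, below the pseudocount on all 6 arrays. At that signal its difference of -0.13 ± 0.15 (SE, fit without a filter) says little. The strain difference of M15191_s_at exceeded it by 0.54 ± 0.27 (SE; limma adjusted p = 0.672 over all 3281 pairs without a filter, of which 0.274% were called).

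The other members were dim, and their p-values come from a fit of all 8740 probe sets without a filter, where limma called 0.95%. None of the 6 dim probe sets was called there, and 0 had an unadjusted p under 0.05. Adrenomedullin (Adm), a vasodilator peptide first found in a medullary tumour, was the nearest to the limit and read 721.7, 420.6 and 124.2 on SHR replicates 1 to 3 against 531.6, 610.5 and 801.9 on WKY replicates 1 to 3. SHR replicate 3 was the lowest array and SHR replicate 1 lay among the WKY arrays. Its log2 difference was -0.58 ± 0.41 (SE, 95% interval -1.54 to 0.38; limma adjusted p = 0.676), and it turned to 0.14 with the run as a block.

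Galanin (Gal), a peptide of nerve fibres and chromaffin cells, read 96.5 to 129.8 in SHR and 79.0 to 150.4 in WKY, below the pseudocount on all 6 arrays. Its log2 difference was 0.03 ± 0.15 (SE, 95% interval -0.32 to 0.38), on a scale that the pseudocount compresses at this signal. Vasoactive intestinal peptide (Vip), a vasodilator and secretagogue of nerve and medullary cells, read 302.5, 412.0 and 68.7 on SHR replicates 1 to 3 and 52.4, 80.7 and 603.9 on WKY replicates 1 to 3. In both strains high and low arrays stood side by side, with an 11.5-fold range within WKY, and the difference was 0.19 ± 0.51 (SE), or 1.14-fold with an upper 95% limit of 2.61-fold and an interval that also holds lower levels in SHR. Somatostatin (Sst), an inhibitory peptide, had 2 dim probe sets, and the strains overlapped in both. M25890_at read 287.6 to 488.0 in SHR and 217.8 to 434.2 in WKY, with a difference of 0.13 ± 0.27 (SE), and K02248cds_s_at read 197.0 to 359.5 and 224.3 to 355.5, with a difference of -0.02 ± 0.24. Their strain differences differed by -0.15 ± 0.31 (SE, K02248cds_s_at minus M25890_at; limma adjusted p = 0.926 over the 3281 pairs).

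**Figure D4:**
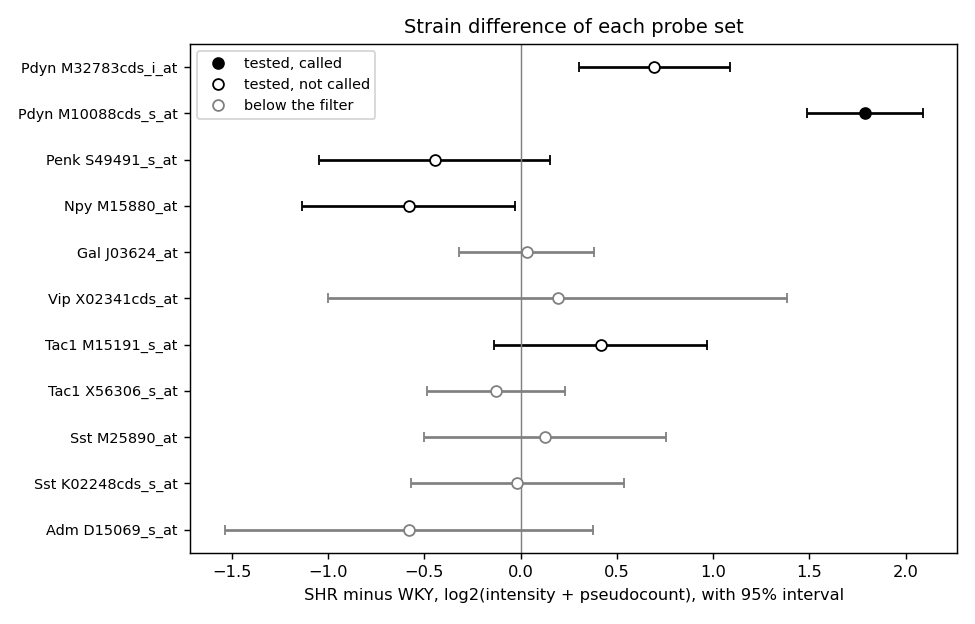
Strain difference (SHR minus WKY, log2 of intensity plus pseudocount) of each of the 11 probe sets with its 95% interval from limma. The filled point is the called Pdyn probe set at 1.79, open black points were tested and not called, and grey points lie below the filter and come from the fit without one. The intervals of the Pdyn probe sets lie above 0, that of Npy just below 0, and the others cross 0.

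The rest of the peptide pathway was described with 1 probe set a gene, its brightest among those tested. Of 3144 such genes 1.65% were called and 409 had an unadjusted p under 0.05, with a median log2 difference of -0.01. Of 15 tested genes for other neuropeptide and peptide hormone precursors 0 were called by limma and 1 had an unadjusted p under 0.05, with a median of -0.01. That gene was Inha, the inhibin alpha subunit of the cortex, at 12679 ± 1031 in SHR and 8378 ± 671 in WKY (0.59 ± 0.13, SE; adjusted p = 0.0732). Receptors of the member peptides had 34 probe sets for 24 genes, of which 10 probe sets for 9 genes were bright enough to test. Of these 9 genes 0 were called and 1 had an unadjusted p under 0.05, Gpr182, once proposed as an adrenomedullin receptor, at 0.86 ± 0.33 (SE; limma adjusted p = 0.300). The kappa opioid receptor gene Oprk1, which dynorphin peptides act on, was below the filter in both of its probe sets. One (U17995_at) read 289.9 to 448.5 in SHR and 328.9 to 610.4 in WKY, and the other (E08874cds_s_at) 90.7 to 210.1 and 170.7 to 274.4. The strains overlapped in both.

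Among granule proteins and prohormone processing enzymes, 1 of 19 tested genes rose and 0 fell, 5 had an unadjusted p under 0.05, and the median was -0.08. Of all 3144 tested genes 1.65% were called and 409 had an unadjusted p under 0.05. Cpd, a carboxypeptidase of the trans-Golgi network that removes basic residues, had a mean intensity of 5763 ± 487 (SD, n = 3) in SHR and 3015 ± 502 (SD, n = 3) in WKY. Its log2 difference was 0.90 ± 0.16 (SE; limma adjusted p = 0.0367). Cpe, the carboxypeptidase that trims peptides in granules and acts after the convertases, stood just outside the threshold at 0.74 ± 0.15 (SE; limma adjusted p = 0.0514). The other genes with an unadjusted p under 0.05 lay on both sides of 0, with Lnpep, an aminopeptidase, at 0.69 ± 0.23 (adjusted p = 0.224), Resp18, a secretory granule protein, at -0.73 ± 0.20 (adjusted p = 0.139) and Scg2, a granin, at -0.53 ± 0.21 (adjusted p = 0.322). The lowest value of the list was that of Ptprn, a granule membrane protein, at -1.10 ± 0.53 (adjusted p = 0.406). Pam, the amidating enzyme for Npy, Gal, Vip and the tachykinins, was at 0.13 ± 0.14 (adjusted p = 0.732). These uncalled genes are named after their values were seen. Of 15 tested regulators described for these precursor genes, by the brightest probe set of each, 1 rose, 0 fell, 3 had an unadjusted p under 0.05 and the median was 0.04. The 1 was Jund, an AP-1 subunit, at 2.65 ± 0.23 (SE; limma adjusted p = 0.00135), with intensities of 1895 ± 119 in SHR and 152 ± 49.4 in WKY (± SD, n = 3 each). Jund passed the filter through SHR alone, and since its WKY mean lies below the pseudocount, the size of its difference depends on the pseudocount. Jun, another AP-1 subunit, had 4 tested probe sets, of which a dimmer one (rc_AA945867_at) was called lower in SHR, at -1.37 ± 0.18 (SE; limma adjusted p = 0.00922). The other 3 were not called and stood at 0.58, -0.49 and -0.46.

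Markers of the cell types that could carry these transcripts were read from the same fit. Of 8 tested chromaffin cell markers 0 rose, 1 fell, Dbh, the enzyme that makes noradrenaline, at -1.29 ± 0.15 (SE; limma adjusted p = 0.00548), and the median was -0.33. An unadjusted p under 0.05 was reached by 5 of the 8, Dbh, Pnmt (-0.57), Slc18a1 (-0.82), Snap25 (-0.70) and Slc18a2 (0.91), against 409 of all 3144 tested genes. Th, Chgb and Ddc, all bright, stood at -0.02, -0.08 and 0.14 and were not called. Of all tested genes 1.65% were called. Snap25 in SHR and Slc18a2 in WKY had mean intensities of 457 and 374, below the filter limit of 530, so each passed the filter through the other strain. Another tested Snap25 probe set (AB003991_g_at) stood at -0.28 ± 0.29 (SE, limma adjusted p = 0.724). The 16 probe sets of the chromaffin list, tested or dim, summed to intensities of 41487 to 53368 in SHR and 56087 to 64220 in WKY, without overlap. Such a sum follows its bright genes, among them Pnmt (mean 13549 in SHR and 20127 in WKY) and Dbh (2513 and 6425). Th differed little (12189 and 12284), so the sum does not show a fall across the list. The sums of the other precursors did not overlap either, at 68671 to 72861 in SHR and 56059 to 68490 in WKY. The same held for the endothelium and smooth muscle list and the leukocyte, fibroblast and fat cell list below. No share of sums without overlap was computed over other gene sets. Of 8 tested cortex markers 0 were called and 1 had an unadjusted p under 0.05, Nr0b1 at 0.85 ± 0.22 (adjusted p = 0.122). The median was -0.09, with sums of 452711 to 633087 in SHR and 486045 to 685814 in WKY. Of 8 tested nerve and Schwann cell markers 0 were called and 2 had an unadjusted p under 0.05, with Prph, a neuronal intermediate filament, at -1.14 ± 0.32 (adjusted p = 0.146; it passed the filter through WKY, with a mean of 895 against 316 in SHR), a median of -0.14, and sums of 31767 to 35794 and 31809 to 36341. Of 6 tested endothelium and smooth muscle markers 1 rose, Acta2, at 1.34 ± 0.15 (adjusted p = 0.00491; 1 of its 3 tested probe sets was called), with a median of 0.07 and sums of 20512 to 24481 against 15929 to 19663. Of 11 tested leukocyte, fibroblast and fat cell markers 5 fell, Cd74, Col1a1, Col1a2, Col3a1 and Cfd, and 7 had an unadjusted p under 0.05. Cd74 and Col1a1 were called in 3 of 4 probe sets each, and Col3a1 in 1 of 2. By the brightest probe set of each, Fabp4 (-1.52), Dcn (-1.45), Cd4 (-0.43), Lyz2 (-0.06), Ptprc (0.05) and Lpl (0.38) were not called. A dimmer Dcn probe set, 1 of its 4 tested, was called lower in SHR (rc_AI639233_s_at, -1.74, limma adjusted p = 0.0476). Dimmer Lpl probe sets stood at -0.54 and -0.03 and were not called. The list pools several cell types, and its median was -1.39. Of its leukocyte markers, Cd74 stood at -1.76 and Cd4 at -0.43, while Lyz2 and Ptprc stood at -0.06 and 0.05. The sums were 68412 to 78899 in SHR against 116334 to 181384 in WKY. None of these lists had a value of 0 on any array. The part of the chromaffin cell and other markers in the Pdyn, Penk and Npy values was not tested.

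The genes whose log2 values ran most like each tested member over the 6 arrays were taken by Pearson's r among the other tested probe sets with 1 symbol, as a description in which the points share the strain difference. For Pdyn M10088cds_s_at they were the malic enzyme gene Me1 (M26594_at, r = 0.998), at a strain difference of 1.33, Ywhaz, a 14-3-3 protein (D30740_g_at, r = 0.997), at 0.69, and Slc3a2, the heavy chain of an amino acid transporter (X89225cds_s_at, r = 0.996), at 0.67. All 3 of these probe sets were called higher in SHR, a direction that their choice by r with this Pdyn probe set fixed in advance. With 6 arrays, 129 of 4310 probe sets had an r over 0.9 with Pdyn M10088cds_s_at, so a high r was not particular to these 3. The nearest to Penk was Pea15 (r = 0.994), to Npy it was Maf (r = 0.996) and to Tac1 M15191_s_at it was Lyn (r = 0.994), and none of these 3 was called.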

How the data were processed

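Adrenal RNA of 3 SHR and 3 WKY samples was read on single-colour Affymetrix arrays, per the labels, and samples were grouped and numbered by their titles. The deposited value is a linear intensity for each probe set. Its algorithm and scaling were not given in the sources used here. Without the top and bottom 2% of values, every array averaged 2504. Settings files deposited with the arrays (other values: module, station and recorded hybridization time) gave 1 chip lot, 1 station and 4 modules. The 2 runs were inferred from a gap of over 60 minutes between the recorded hybridization times. The number of arrays limits the precision.

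Values were used as deposited, as log2(intensity + 181.5), the 20th percentile of all values. After 59 of 8799 probe sets, all controls, were left out, probe sets with a mean log2 value above the 40th percentile were tested. Gene symbols came from the platform annotation. limma 3.58.1 (lmFit, eBayes with a trend, statmod 1.5.0) ran in R 4.3.3, two-sided, with Benjamini-Hochberg adjustment. Pairs of probe sets were compared by limma without a trend. Steps were tested on simulated data. Named were all member probe sets, each list's called genes (or, with none, its gene of smallest p) and the nearest genes by Pearson's r. Outside this rule, and after values were seen, the text names the tissue markers Th and Cyp11a1, Oprk1 and neighbours of Pdyn. It also names further genes of the processing, regulator, chromaffin, and leukocyte, fibroblast and fat cell lists. The members, lists and alternatives were chosen with earlier results of these data known.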

Additional observations from a re-analysis of the deposited data

How the results depend on the processing

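The single call among the members, Pdyn M10088cds_s_at, and the absence of a called member pair were recomputed under 18 settings. The count of members called stayed at 1 in 17 of them and was 0 in the first hybridization run alone, and the count of called member pairs was 0 in all 18. Over all tested probe sets, 102 were called. That count fell to 60 with eBayes without a trend, 20 when the run was a block, 1 within the first run, where 1 SHR array stands for its strain and is assumed to vary like the others, and 38 to 59 when any 1 array was left out. With the replicate number as a block, 53 were called and Pdyn M10088cds_s_at stayed called at 1.79 ± 0.15 (SE, limma adjusted p = 0.00643). Arrays with the same replicate number did not deviate together from their strain means (r = 0.00088, 0.010 and 0.071), and 2 of 6 arrays correlated best with their own number. The tested members kept their sign throughout. Among the dim ones the sign changed in 2 of 16 settings for Gal and for Adm, in 3 for Vip, in 1 for Tac1 X56306_s_at, and in 4 and 6 for Sst M25890_at and K02248cds_s_at. Signals near or below the pseudocount limit what can be read from these.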

Other observations

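The genes next to each member on its chromosome were looked up in the RefSeq gene table (GRCr8), 10 protein-coding genes on either side, a window chosen after the values of the members were seen. Of the 160 neighbours of the 8 members 30 had a tested probe set, 0 were called by limma and 6 had an unadjusted p under 0.05 by their brightest probe set. Over all 3144 tested genes 1.65% were called and 409 had an unadjusted p under 0.05. Among the 6 tested neighbours of Pdyn 1 had an unadjusted p under 0.05. This was Polr1b, a subunit of RNA polymerase I, at -0.48 ± 0.16 (SE; limma adjusted p = 0.236). The adjacent gene Sirpa was at 0.30 ± 0.17 (adjusted p = 0.459).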
